A study of Mus musculus with 25 samples.

Results

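The 30 genes described here make cholesterol from acetyl-CoA, sense its level, or move it within and out of the cell. They were picked by name from a table of 24537 genes, by a rule that uses no measured value but was written with earlier results of these data known, as 19 enzymes of the mevalonate and sterol pathway, 5 genes of the SREBP2 sensing system and receptor control, and 6 genes of transport, efflux and esterification. RNA sequencing of polyA RNA measured them in 25 livers of male C57BL6/J mice aged 24 months. The groups were Rosa26KO mice on control diet (Control_Rosa26KO, n = 6), Rosa26KO mice on high-fat diet (HFD_Rosa26KO, n = 6), p53KO mice on control diet (Control_p53KO, n = 6) and p53KO mice on high-fat diet (HFD_p53KO, n = 7). Every group therefore carried a knockout, with Rosa26, a locus often used as a neutral target, as the comparator. The labels leave out the way each knockout was produced, the cells in which it acts, what the diets contained and how long they were fed. All 30 genes had enough counts to be tested, among 14133 tested genes. Values are given as CPM, a gene's read count scaled to the size of its library.

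Liver cells build cholesterol from acetyl-CoA through mevalonate, isoprenoids, squalene and lanosterol. The transcription factor SREBP2, encoded by Srebf2, switches most of these enzymes on together when membranes of the endoplasmic reticulum are low in sterol. Its escort protein Scap carries it to the Golgi, and the Insig proteins hold Scap back when sterol is plentiful. Cholesterol taken up in lipoproteins leaves lysosomes through Npc2 and Npc1, is carried by Stard4, is stored as ester by Soat2, and leaves cells through Abca1 and Abcg1.

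Total counts ran from 16324283 to 21501281 per library. Trp53, the gene named as knocked out, averaged 36.8 ± 4.8 CPM (SD, n = 6) on control diet and 37.1 ± 4.56 CPM (SD, n = 6) on HFD in Rosa26KO. In p53KO livers it averaged 24.1 ± 6.89 CPM (SD, n = 6) and 26.0 ± 4.47 CPM (SD, n = 7), so transcript remained. The difference averaged over diets missed the threshold (log2 fold change -0.56, edgeR adjusted p = 0.210). The highest Control_p53KO value, 35.6 CPM, and the highest HFD_p53KO value, 31.05 CPM, lay within the range of Rosa26KO on the same diet, 31.6 to 43.7 CPM and 30.6 to 43.8 CPM. In all, 3 p53KO livers stood on the other diet's side for the cholesterol enzymes. HFD_p53KO 5 and HFD_p53KO 7 were nearer to the HFD_Rosa26KO mean than to the Control_Rosa26KO mean for 4 and 3 of the 19 enzymes, against 18 or 19 in the other HFD_p53KO livers. Control_p53KO 3 was nearer to the HFD mean for 19 of 19, against 0 to 6 in the other Control_p53KO livers. Over 208 other genes that differed by diet in Rosa26KO, the share nearer to HFD was 80.3% in HFD_p53KO 5, 55.3% in HFD_p53KO 7 and 60.6% in Control_p53KO 3. It was 82.7% to 94.2% in the other HFD_p53KO livers and 4.81% to 29.3% in the other Control_p53KO livers except Control_p53KO 1, which at 66.8% was the highest control-diet liver although only 1 of its 19 enzymes was nearer to HFD. The labels were kept, and counts are given with and without these 3 libraries.

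On high-fat diet, 16 of the 30 genes fell and 0 rose when the diet effect was averaged over both genotypes (edgeR quasi-likelihood test, Benjamini-Hochberg adjusted p under 0.05). The 16 were 5 of 8 mevalonate and isoprenoid enzymes, 9 of 11 squalene and sterol enzymes, Scap and Stard4. Among all tested genes 9.71% passed in either direction, 5.07% as lower and 4.64% as higher. The median log2 fold change was -0.68 over the 30 genes, with 26 below 0, and -0.01 over all tested genes, of which 52.4% lay below 0. By role the median was -0.86 for the mevalonate and isoprenoid enzymes, -0.76 for the squalene and sterol enzymes, -0.26 for the SREBP2 system and -0.16 for transport, efflux and esterification. Without the 3 libraries on the other diet's side, 22 genes passed as lower and 2 as higher, where 24.7% of all tested genes passed. That set was chosen from the enzyme levels themselves, so these counts are a description and not separate evidence. Limma voom over all libraries gave 23 as lower and 2 as higher, where 35.4% of all tested genes passed.

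**Figure D1:**
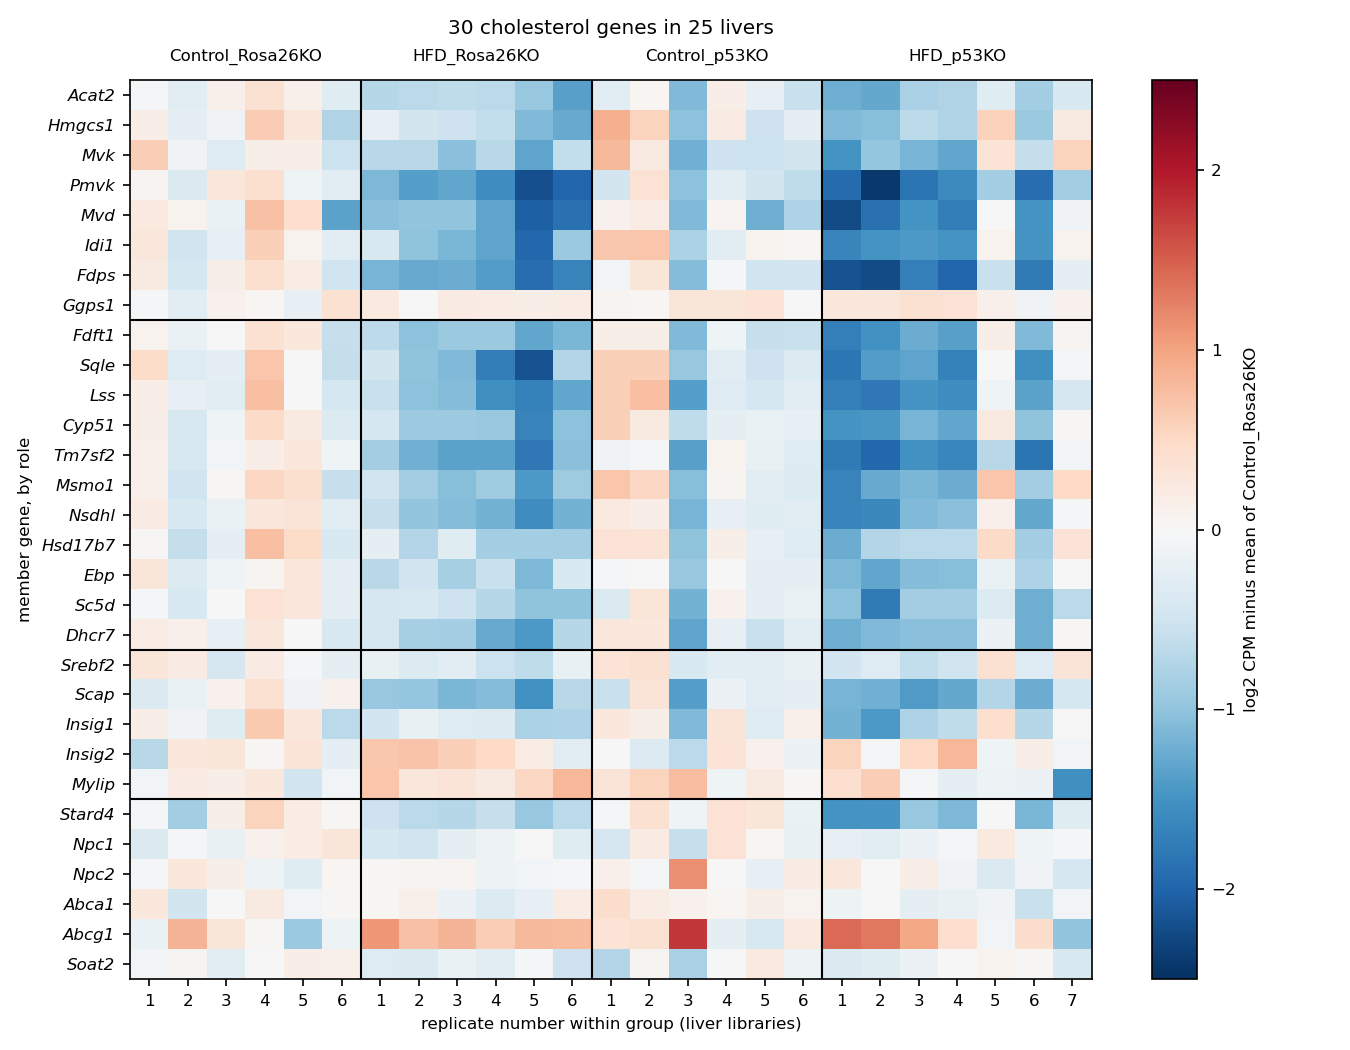
Level of each of the 30 genes (rows, by role) in each of 25 livers (columns, by group), as log2 CPM minus the mean of Control_Rosa26KO, blue for lower and red for higher. Apart from Ggps1, the enzyme rows are blue in the HFD groups and in Control_p53KO 3, and paler or red in HFD_p53KO 5 and 7.

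Hepatocyte markers moved with the same contrast: of 10 markers, 7 passed as lower and 10 of 10 lay below 0. Among all tested genes 5.07% passed as lower and 52.4% lay below 0. The median log2 fold change of the 10 markers was -0.65. Their summed level was 100527 to 164778 CPM in Control_Rosa26KO, 65298 to 154730 in HFD_Rosa26KO, 77216 to 146387 in Control_p53KO and 48806 to 116366 in HFD_p53KO, so all 4 ranges overlapped. Of 11 neutrophil markers, 0 passed in any diet comparison, with a median log2 fold change of 2.45 in Rosa26KO (7 at an unadjusted p under 0.05) and -2.76 in p53KO (10), and -0.15 averaged. Their sums were 4.63 to 22.5 CPM in Control_Rosa26KO, 7.33 to 390.2 in HFD_Rosa26KO, 5.32 to 614 in Control_p53KO and 5.28 to 41.9 in HFD_p53KO. The 9 recruited macrophage markers had a median of 0.63 averaged over genotypes, with 0 passed and 4 at an unadjusted p under 0.05. No marker of the lists used was at 0 in all libraries, and Ly6g and Klrb1c were among those that averaged under 1 CPM. In bulk liver, fewer cells of a type and less RNA per cell cannot be told apart. The part of cell composition in the diet result was not tested.

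Within Rosa26KO livers the high-fat diet lowered 5 of the 30 genes and raised 0: Pmvk, Scap, Fdps, Tm7sf2 and Acat2. Of all tested genes 1.51% passed there, 1.06% as lower and 0.446% as higher. For 13 of the 30 genes, every HFD_Rosa26KO liver lay below every Control_Rosa26KO liver, which held for 1.81% of all tested genes. The 13 were Acat2, Mvk, Pmvk, Fdps, Fdft1, Lss, Cyp51, Tm7sf2, Nsdhl, Ebp, Sc5d, Dhcr7 and Scap. The median log2 fold change of the 30 genes was -0.78, and 22 of them had an unadjusted p under 0.05, as did 2467 of the 14133 tested genes. Of 25 fits that each left out 1 library, Pmvk and Scap passed in 25, Fdps in 24, Tm7sf2 in 20 and Acat2 in 16, and the count of members ran from 2 to 11. It was 2 without HFD_Rosa26KO 5. Fitting only the 2 groups compared gave 18 genes as lower, where 4.77% of all tested genes passed in either direction. DESeq2 gave 16 as lower (4.08% of all tested genes), and limma voom with sample weights gave 21 as lower and 2 as higher (21.5%). Without the 3 p53KO libraries named above, which enter through the shared estimate of spread, 19 genes passed as lower (5.96% of all tested genes).

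Within p53KO livers 4 of the 30 genes fell on high-fat diet and 0 rose: Pmvk, Stard4, Scap and Fdps. Of all tested genes 2.87% passed, 1.25% as lower and 1.62% as higher. Here 1 gene, Abca1, had every HFD liver below every control-diet liver, against 0.41% of all tested genes. The median log2 fold change was -0.50, and 15 genes had an unadjusted p under 0.05, as did 2661 of the 14133 tested genes. With 1 library left out, Pmvk and Stard4 passed in 25 of 25 fits, Scap in 11 and Fdps in 6, and the count of members ran from 2 to 9. Without HFD_p53KO 5 and 7 and Control_p53KO 3 the median was -1.07, with 22 genes lower and 1 higher (12.3% of all tested genes). That set was chosen from the enzyme levels, so these values are a description and not separate evidence. Fitting only the 2 p53KO groups left 0 of the 30 past the edgeR threshold and 12 with an unadjusted p below 0.05, where 0.878% of all tested genes passed. DESeq2 over all groups called 9 as lower (5.59% of all tested genes), and limma voom 20 as lower and 1 as higher (15.5%).

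**Figure D2:**
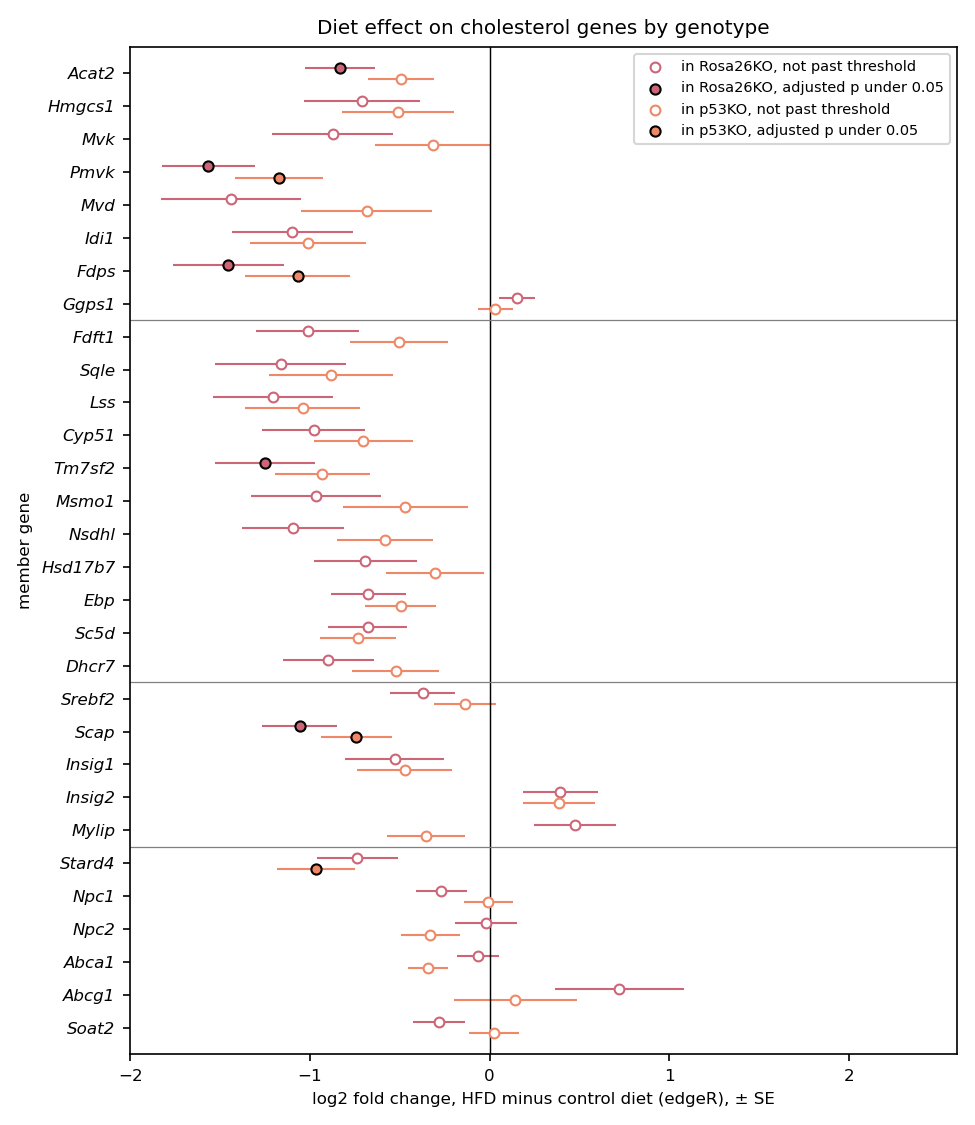
Log2 fold change of HFD against control diet for each gene (rows, by role) in Rosa26KO and in p53KO livers, with bars of 1 SE from edgeR and filled points for adjusted p under 0.05. The 5 filled points in Rosa26KO and the 4 in p53KO all lie left of 0.

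The difference between the diet effects of the genotypes was tested as an interaction. None of the 30 genes passed by edgeR (0 of 30, against 0% of all tested genes), and 0 passed by DESeq2 or limma voom. At an unadjusted p under 0.05 there was 1 gene by each of the 3 tools. In edgeR it was Mylip, where 1221 of the 14133 tested genes had such a p. The median interaction was 0.27 on the log2 scale, with 22 of 30 above 0, meaning a diet effect less negative in p53KO. Without the 3 libraries on the other diet's side it was -0.21, so its sign turned. Those livers, all p53KO, were chosen from the enzyme levels. Leaving out livers chosen that way itself makes the p53KO diet estimate more negative, so the turn is a description and not separate evidence. Intervals were wide: for Sqle the interaction was 0.28 with a 95% interval from -0.75 to 1.31, and for Pmvk 0.39 with an interval from -0.33 to 1.12.

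Genotype gave no call among the 30 genes. On control diet 0 of 30 passed (0% of all tested genes, with 1408 of 14133 at an unadjusted p under 0.05), on high-fat diet 0 of 30 (0%, with 509), and averaged over diets 0 of 30 (0%, with 573). DESeq2 and limma voom also called 0 of the 30 in each. In edgeR, members at an unadjusted p under 0.05 numbered 0, 1 (Mylip) and 0. By DESeq2 they numbered 0, 1 and 0, and by limma voom 0, 3 and 1. The median log2 difference, p53KO minus Rosa26KO, was -0.11 on control diet and 0.10 on high-fat diet. Without the 3 libraries on the other diet's side the latter was -0.27, and without HFD_p53KO 5 or 7 alone it was -0.04 or -0.02, so its sign turned. Without Control_p53KO 3 the former was 0.004. These livers were chosen from the enzyme levels, so the shifts are a description and not separate evidence. The averaged difference for Hmgcs1 was 0.16 with a 95% interval from -0.30 to 0.62, for Sqle 0.04 from -0.48 to 0.55, and for Srebf2 0.07 from -0.19 to 0.32. The missed threshold does not show that the genotypes were alike.

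The 4 promoters below show the kinds of sequence in front of these genes. Hmgcs1 is shown as the only matched member with the longer sterol motif. Nsdhl and Ebp are shown as enzymes that fell, with a pair of CCAAT boxes in the bases printed. Past its start site, outside those bases, Nsdhl also has CCAAT boxes at 9 and 35. Pmvk is shown as the enzyme of smallest adjusted p, with a single box in the promoter printed. Another RefSeq promoter of Pmvk, with a window beginning at 89459321, has 0 CCAAT boxes and is not printed. Each sequence is the 250 bases before a RefSeq start site in GRCm38.p6, 5′ to 3′ on the gene's strand. Capitals mark CACNCCA, the core of a sterol regulatory element, and CCAAT, the box bound by NF-Y, or their reverse complements.
Hmgcs1, chr13:119690101-119690350, plus strand: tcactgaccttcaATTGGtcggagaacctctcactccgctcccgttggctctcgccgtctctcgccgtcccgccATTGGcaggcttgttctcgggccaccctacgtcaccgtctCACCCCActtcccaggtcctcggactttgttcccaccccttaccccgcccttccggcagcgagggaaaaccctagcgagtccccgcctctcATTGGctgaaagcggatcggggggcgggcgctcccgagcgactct
Nsdhl, chrX:72918271-72918520, plus strand: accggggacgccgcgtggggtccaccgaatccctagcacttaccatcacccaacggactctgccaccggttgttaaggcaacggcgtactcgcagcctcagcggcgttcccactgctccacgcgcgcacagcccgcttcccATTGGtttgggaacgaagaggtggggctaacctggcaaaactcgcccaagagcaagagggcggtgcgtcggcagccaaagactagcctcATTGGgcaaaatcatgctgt
Ebp, chrX:8193513-8193762, minus strand: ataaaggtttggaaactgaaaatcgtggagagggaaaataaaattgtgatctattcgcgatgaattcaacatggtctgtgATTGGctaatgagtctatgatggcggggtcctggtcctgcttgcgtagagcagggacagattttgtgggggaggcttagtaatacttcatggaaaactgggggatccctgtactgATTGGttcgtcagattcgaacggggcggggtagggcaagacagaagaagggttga
Pmvk, chr3:89454291-89454540, plus strand: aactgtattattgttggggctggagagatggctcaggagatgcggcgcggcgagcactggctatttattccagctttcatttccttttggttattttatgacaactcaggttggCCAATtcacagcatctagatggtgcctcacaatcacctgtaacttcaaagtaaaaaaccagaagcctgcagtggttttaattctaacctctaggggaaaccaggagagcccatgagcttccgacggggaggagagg

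RefSeq promoters, from 250 bases before to 50 after the start, were matched for 23 of the 30 genes. Fdps, Fdft1, Sqle, Stard4, Npc1, Abcg1 and Soat2 had none to search, and of these Fdps, Fdft1, Sqle and Stard4 fell on average. Searched on both strands, TCACNCCAC, which contains CACNCCA, was present in 1 of the 23 (4.35%), Hmgcs1, where it began at -137, and in 1.5% of 10845 tested genes with a promoter. CACNCCA was present in 6 of 23 (26.1%) against 21.1% of tested genes. CCAAT was present in 20 of 23 (87.0%) against 42.7%, and GGGCGG, the Sp1 box, in 21 of 23 (91.3%) against 65.2%. These are matches of letters in a short window, not measured binding.

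Pmvk, phosphomevalonate kinase (chromosome 3, 89454541 to 89469013, GRCm38), had the smallest adjusted p of the 30 genes. Pmvk had a lowest, median and highest CPM of 75.0, 95.9 and 128 in Control_Rosa26KO and 21.2, 35.3 and 44.3 in HFD_Rosa26KO. In p53KO these were 47.6, 70.5 and 124 on control diet and 18.3, 27.3 and 53.4 on HFD. All 6 HFD_Rosa26KO livers lay below all control livers of that genotype, and in p53KO the groups overlapped only through HFD_p53KO 5 and 7 and Control_p53KO 3. Averaged over genotypes Pmvk fell by 61.2% (log2 fold change -1.37, SE 0.18, edgeR adjusted p = 6.18e-05), with 13 of 13 HFD livers below the control-diet mean of their genotype.

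Fdps, farnesyl diphosphate synthase (chromosome 3, 89093588 to 89101959, GRCm38), makes the isoprenoid shared by sterols and prenylated proteins. For Fdps the lowest, median and highest CPM were 355, 564 and 661 in Control_Rosa26KO and 135, 200.3 and 225 in HFD_Rosa26KO. The p53KO livers gave 236, 421 and 621 on control diet and 107, 147 and 426 on HFD. In p53KO, HFD_p53KO 5 at 341 CPM and HFD_p53KO 7 at 426 CPM reached into the control-diet range. Fdps fell by 58.3% (log2 fold change -1.26, SE 0.21, edgeR adjusted p = 0.000759), with 12 of 13 HFD livers below the control-diet mean of their genotype.

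Idi1, isopentenyl-diphosphate isomerase (chromosome 13, 8885501 to 8892451, GRCm38), supplies the building block that Fdps uses. Idi1 ran over 140.1, 191 and 299.9 CPM (lowest, median, highest) in Control_Rosa26KO and 50.8, 93.3 and 150.3 in HFD_Rosa26KO. On control diet p53KO livers had 114, 206 and 318, and on HFD 62.7, 71.4 and 210.0. The ranges overlapped in both genotypes. It fell by 51.8% on average (log2 fold change -1.05, SE 0.23, edgeR adjusted p = 0.00588), with 13 of 13 HFD livers below the control-diet mean of their genotype.

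Acat2, the cytosolic thiolase that joins acetyl-CoA units (chromosome 17, 12942890 to 12960747, GRCm38), opens the pathway. Acat2 had a lowest, median and highest CPM of 160.1, 202 and 255 in Control_Rosa26KO and 76.4, 122 and 127 in HFD_Rosa26KO. Corresponding p53KO values were 92.2, 166 and 219 (control diet) and 80.9, 112 and 159 (HFD). The Rosa26KO diet groups did not overlap and the p53KO groups did. Acat2 fell by 36.8% (log2 fold change -0.66, SE 0.13, edgeR adjusted p = 0.00309), with 13 of 13 HFD livers below the control-diet mean of their genotype.

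Hmgcs1, HMG-CoA synthase (chromosome 13, 119690379 to 119708260, GRCm38), follows Acat2 in the pathway. For Hmgcs1 the lowest, median and highest CPM were 455, 789 and 1183 in Control_Rosa26KO and 319, 515 and 659.6 in HFD_Rosa26KO. In p53KO these were 376, 767 and 1416 on control diet and 356, 456 and 1135 on HFD. Both genotypes overlapped between diets, and HFD_p53KO 5 at 1135 CPM exceeded all but 1 of the Control_p53KO livers. Its averaged change missed the threshold (log2 fold change -0.61, SE 0.22, edgeR adjusted p = 0.0876), with 11 of 13 HFD livers below the control-diet mean of their genotype.

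The other mevalonate enzymes were Mvd, Mvk and Ggps1. Mvd, the decarboxylase, averaged 66.5 ± 26.1 CPM on control diet and 24.5 ± 7.15 on HFD in Rosa26KO, with 48.2 ± 20.2 and 30.04 ± 20.3 in p53KO, and fell (log2 fold change -1.06, SE 0.27, edgeR adjusted p = 0.0134). Mvk, mevalonate kinase, averaged 32.7 ± 9.39 CPM on control diet and 17.9 ± 3.17 on HFD in Rosa26KO, with 28.8 ± 14.9 and 23.2 ± 14.3 in p53KO, and missed the threshold (log2 fold change -0.60, SE 0.23, edgeR adjusted p = 0.112). Ggps1, which makes the longer isoprenoid for protein prenylation rather than sterol, averaged 12.8 ± 2.18 CPM on control diet and 14.3 ± 0.782 on HFD in Rosa26KO, with 14.4 ± 1.47 and 14.8 ± 1.63 in p53KO, with a log2 difference of 0.09 (SE 0.07) that also missed it.

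Sqle, squalene epoxidase (chromosome 15, 59315077 to 59331192, GRCm38), catalyses the first oxygenation of sterol synthesis. Sqle ran over 125, 175 and 307 CPM (lowest, median, highest) in Control_Rosa26KO and 42.1, 90.9 and 138 in HFD_Rosa26KO. The p53KO livers gave 98.4, 154 and 288 on control diet and 54.2, 71.8 and 191 on HFD. The highest HFD_Rosa26KO liver exceeded the lowest control liver, and 5 of 7 HFD_p53KO livers lay below all Control_p53KO livers. Sqle fell by 50.8% (log2 fold change -1.02, SE 0.25, edgeR adjusted p = 0.0117), with 11 of 13 HFD livers below the control-diet mean of their genotype.

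Lss, lanosterol synthase (chromosome 10, 76531588 to 76557138, GRCm38), closes the sterol rings. Lss had a lowest, median and highest CPM of 99.6, 126 and 230.0 in Control_Rosa26KO and 42.3, 59.6 and 92.6 in HFD_Rosa26KO. On control diet p53KO livers had 52.1, 109.7 and 229.8, and on HFD 39.3, 49.0 and 127. Its Rosa26KO diet groups did not overlap. Lss fell by 54.1% (log2 fold change -1.12, SE 0.23, edgeR adjusted p = 0.00358), with 13 of 13 HFD livers below the control-diet mean of their genotype.

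Cyp51, lanosterol demethylase (chromosome 5, 4081145 to 4104746, GRCm38), acts next. For Cyp51 the lowest, median and highest CPM were 216, 291 and 398 in Control_Rosa26KO and 89.2, 149 and 209 in HFD_Rosa26KO. Corresponding p53KO values were 183, 250.4 and 431 (control diet) and 101, 128 and 335 (HFD). Rosa26KO livers separated by diet, while HFD_p53KO 5 and 7 lay among the Control_p53KO livers. It fell by 44.2% (log2 fold change -0.84, SE 0.20, edgeR adjusted p = 0.00899), with 11 of 13 HFD livers below the control-diet mean of their genotype.

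Tm7sf2, a sterol reductase (chromosome 19, 6062821 to 6068373, GRCm38), acts after Cyp51. Tm7sf2 ran over 127, 171 and 204 CPM (lowest, median, highest) in Control_Rosa26KO and 48.6, 69.8 and 91.9 in HFD_Rosa26KO. In p53KO these were 65.2, 152 and 178 on control diet and 42.8, 54.1 and 160.0 on HFD. Control_p53KO 3 was the low value of its group and HFD_p53KO 7 the high value of its own. The average fell by 53% (log2 fold change -1.09, SE 0.19, edgeR adjusted p = 0.00109), with 12 of 13 HFD livers below the control-diet mean of their genotype.

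Nsdhl, a dehydrogenase that helps remove methyl groups from sterols (chromosome X, 72918557 to 72958514, GRCm38), lies on the X chromosome. Nsdhl had a lowest, median and highest CPM of 111, 148 and 182 in Control_Rosa26KO and 49.0, 66.1 and 96.4 in HFD_Rosa26KO. The p53KO livers gave 64.2, 123 and 170.3 on control diet and 46.1, 67.4 and 159 on HFD. The Rosa26KO diet groups were apart and the p53KO groups overlapped. Nsdhl fell by 44.1% (log2 fold change -0.84, SE 0.19, edgeR adjusted p = 0.00826), with 11 of 13 HFD livers below the control-diet mean of their genotype.

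Sc5d, sterol desaturase (chromosome 9, 42251595 to 42264256, GRCm38), had the highest level per kilobase of exon of the 30 genes in Control_Rosa26KO. For Sc5d the lowest, median and highest CPM were 722, 931 and 1204 in Control_Rosa26KO and 466.3, 614 and 709.6 in HFD_Rosa26KO. On control diet p53KO livers had 413, 824 and 1158, and on HFD 275, 511 and 737. The Rosa26KO diet groups did not overlap. In p53KO, Control_p53KO 3 at 413 CPM lay among the HFD livers, and HFD_p53KO 5 at 737 CPM lay just above Control_p53KO 1. Sc5d fell by 38.7% (log2 fold change -0.71, SE 0.15, edgeR adjusted p = 0.00471), with 13 of 13 HFD livers below the control-diet mean of their genotype.

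Dhcr7, a reductase of the last steps to cholesterol (chromosome 7, 143823145 to 143848410, GRCm38), works near the end of the pathway. Dhcr7 ran over 194, 265 and 307 CPM (lowest, median, highest) in Control_Rosa26KO and 93.7, 142 and 189 in HFD_Rosa26KO. Corresponding p53KO values were 102, 215 and 310.4 (control diet) and 109, 123 and 259 (HFD). Every HFD_Rosa26KO liver was below every Control_Rosa26KO liver, and all 7 HFD_p53KO livers lay within the Control_p53KO range, whose low end was replicate 3. It fell by 38.9% (log2 fold change -0.71, SE 0.18, edgeR adjusted p = 0.0125), with 11 of 13 HFD livers below the control-diet mean of their genotype.

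Of the remaining sterol enzymes, Fdft1, which makes squalene, averaged 256 ± 56.7 CPM on control diet and 127 ± 19.6 on HFD in Rosa26KO, with 207 ± 65.3 and 146 ± 84.9 in p53KO, and fell (log2 fold change -0.76, SE 0.20, edgeR adjusted p = 0.0168). Ebp, a sterol isomerase, averaged 316 ± 58.0 CPM on control diet and 198 ± 35.2 on HFD in Rosa26KO, with 269 ± 56.2 and 191 ± 72.2 in p53KO, and fell (log2 fold change -0.58, SE 0.14, edgeR adjusted p = 0.0117). Msmo1, a methyl sterol oxidase, averaged 255 ± 75.1 CPM on control diet and 130.5 ± 27.4 on HFD in Rosa26KO, with 252 ± 104 and 182 ± 132 in p53KO, and missed the threshold (log2 fold change -0.72, SE 0.25, edgeR adjusted p = 0.0716). Hsd17b7, a ketosteroid reductase of the pathway, averaged 91.3 ± 34.1 CPM on control diet and 56.5 ± 12.1 on HFD in Rosa26KO, with 83.8 ± 26.5 and 68.0 ± 32.98 in p53KO, and missed it too (log2 fold change -0.50, SE 0.20, edgeR adjusted p = 0.117). All 11 squalene and sterol enzymes had estimates below 0 in both genotypes.

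**Figure D3:**
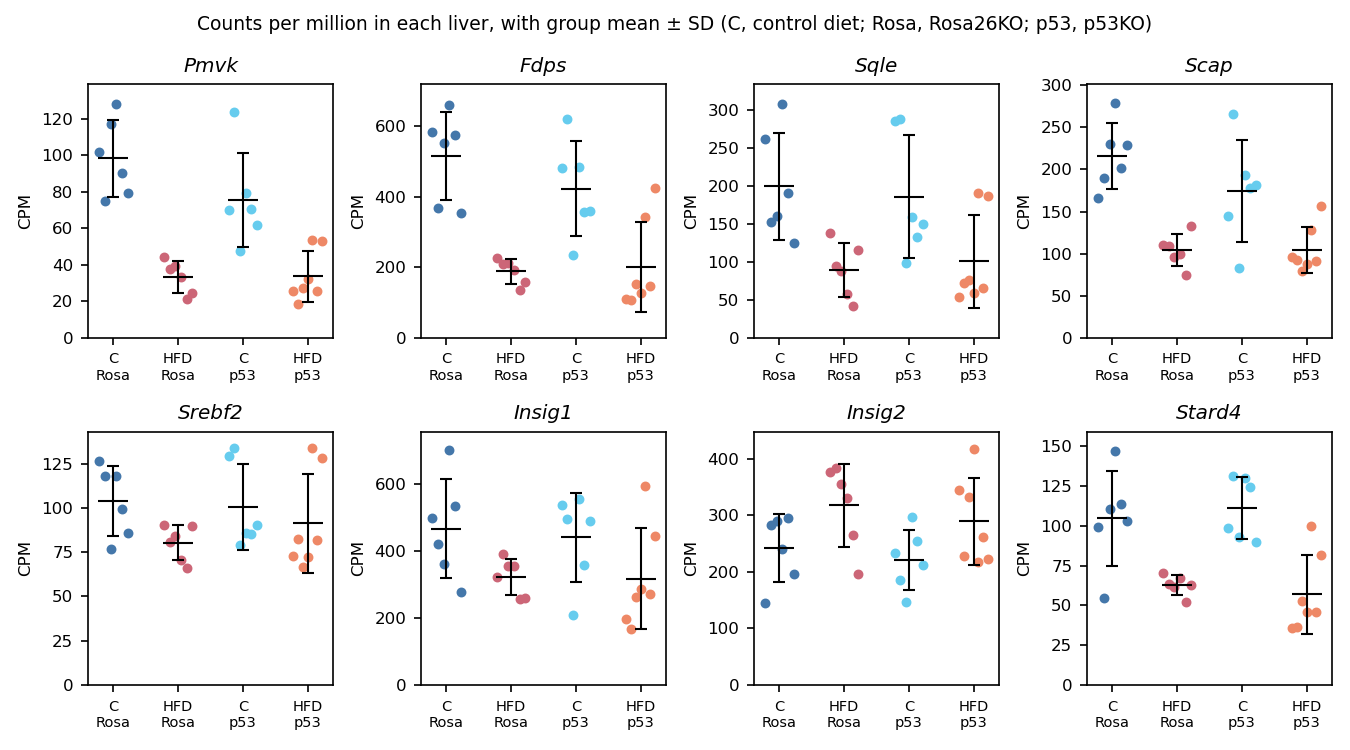
CPM of 8 genes in each liver (points) with the group mean and SD (bars), by diet and genotype. Pmvk and Fdps do not overlap between the Rosa26KO diet groups, and 2 of the 7 HFD_p53KO livers, replicates 5 and 7, sit above the rest for Pmvk, Fdps, Sqle, Scap, Srebf2, Insig1 and Stard4.

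Among the sensing genes, Scap was the one that passed. Scap, the escort of SREBP2 (chromosome 9, 110333288 to 110384950, GRCm38), is not itself an enzyme of the pathway. Scap had a lowest, median and highest CPM of 166, 215 and 279 in Control_Rosa26KO and 75.1, 105 and 133 in HFD_Rosa26KO. In p53KO these were 82.5, 179.6 and 266 on control diet and 79.6, 92.1 and 156 on HFD. Rosa26KO livers separated fully by diet. Scap fell by 46.4% (log2 fold change -0.90, SE 0.14, edgeR adjusted p = 0.00048), with 13 of 13 HFD livers below the control-diet mean of their genotype.

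Srebf2 itself (chromosome 15, 82147181 to 82205379, GRCm38) varied less. For Srebf2 the lowest, median and highest CPM were 76.8, 108 and 127 in Control_Rosa26KO and 66.3, 82.3 and 90.6 in HFD_Rosa26KO. The p53KO livers gave 78.9, 88.1 and 134 on control diet and 66.9, 82.0 and 134 on HFD. The diet ranges overlapped in both genotypes, and the highest HFD_p53KO values were those of replicates 5 and 7. The averaged change of -16.3% missed the threshold (log2 fold change -0.26, SE 0.12, edgeR adjusted p = 0.205), with 11 of 13 HFD livers below the control-diet mean of their genotype.

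Insig1, an anchor of Scap and itself a SREBP target (chromosome 5, 28071363 to 28078662, GRCm38), overlapped between diets. Insig1 ran over 279, 460.1 and 699.5 CPM (lowest, median, highest) in Control_Rosa26KO and 257, 337 and 390.1 in HFD_Rosa26KO. On control diet p53KO livers had 209, 492 and 556, and on HFD 166, 271 and 595. The low end of Control_p53KO was replicate 3 and the high end of HFD_p53KO replicate 5. Its change of -29.3% missed the threshold (log2 fold change -0.50, SE 0.19, edgeR adjusted p = 0.102), with 11 of 13 HFD livers below the control-diet mean of their genotype.

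Insig2, the second anchor (chromosome 1, 121304353 to 121332589, GRCm38), had an estimate of the opposite sign. Insig2 had a lowest, median and highest CPM of 145, 262 and 295 in Control_Rosa26KO and 196, 342 and 383 in HFD_Rosa26KO. Corresponding p53KO values were 147, 222 and 297 (control diet) and 217, 262 and 417 (HFD). The diet ranges overlapped in both genotypes. The estimate was a 31.0% higher level on HFD that missed the threshold (log2 fold change 0.39, SE 0.14, edgeR adjusted p = 0.0884), with 11 of 13 HFD livers above the control-diet mean of their genotype. Limma voom placed Insig2 and Abcg1 past the threshold as higher in this comparison, and edgeR did so without the 3 libraries on the other diet's side.

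Mylip, the ligase that directs lipoprotein receptors to degradation and a target of the sterol sensor LXR, averaged 14.7 ± 2.57 CPM on control diet and 20.4 ± 3.50 on HFD in Rosa26KO, with 18.2 ± 4.16 and 14.2 ± 5.52 in p53KO. Its diet estimate was 0.48 (SE 0.23) in Rosa26KO and -0.35 (SE 0.22) in p53KO on the log2 scale, and the interaction of -0.83 had an edgeR adjusted p = 0.560. Levels were low throughout, and HFD_p53KO 7 was at 5 CPM.

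Stard4, a soluble carrier of cholesterol (chromosome 18, 33199355 to 33213862, GRCm38), was the transport gene that passed. For Stard4 the lowest, median and highest CPM were 54.8, 107 and 147 in Control_Rosa26KO and 52.2, 63.2 and 70.2 in HFD_Rosa26KO. In p53KO these were 89.7, 111 and 131 on control diet and 35.7, 46.2 and 100.2 on HFD. In p53KO only HFD_p53KO 5 (100.2 CPM) reached the control-diet range, and in Rosa26KO Control_Rosa26KO 2 (54.8 CPM) lay within the HFD range. Stard4 fell by 44.6% (log2 fold change -0.85, SE 0.16, edgeR adjusted p = 0.00148), with 13 of 13 HFD livers below the control-diet mean of their genotype.

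Abca1, which loads cholesterol onto apolipoprotein A-I (chromosome 4, 53030787 to 53159895, GRCm38), had a narrow range. Abca1 ran over 99.4, 138 and 165 CPM (lowest, median, highest) in Control_Rosa26KO and 107, 132 and 154 in HFD_Rosa26KO. The p53KO livers gave 140.4, 149 and 186 on control diet and 92.7, 125 and 138 on HFD. All 7 HFD_p53KO livers were below all 6 Control_p53KO livers, while the Rosa26KO groups overlapped. In p53KO the change of -21.2% missed the threshold (log2 fold change -0.34, SE 0.11, edgeR adjusted p = 0.0883), and the averaged change did as well (log2 fold change -0.21, SE 0.08, edgeR adjusted p = 0.113), with 10 of 13 HFD livers below the control-diet mean of their genotype.

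Npc1, the lysosomal membrane exporter (chromosome 18, 12189692 to 12236400, GRCm38), overlapped in all groups. Npc1 had a lowest, median and highest CPM of 99.0, 129 and 155 in Control_Rosa26KO and 89.5, 105 and 128 in HFD_Rosa26KO. On control diet p53KO livers had 84.3, 120.5 and 162, and on HFD 106, 117 and 149. No difference passed (log2 fold change -0.14, SE 0.10, edgeR adjusted p = 0.415), with 10 of 13 HFD livers below the control-diet mean of their genotype.

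Soat2, which esterifies cholesterol in hepatocytes (chromosome 15, 102150526 to 102163469, GRCm38), likewise overlapped. For Soat2 the lowest, median and highest CPM were 49.7, 62.2 and 68.4 in Control_Rosa26KO and 42.4, 49.4 and 58.5 in HFD_Rosa26KO. Corresponding p53KO values were 34.8, 58.4 and 72.0 (control diet) and 46.8, 55.2 and 64.4 (HFD). Its averaged change missed the threshold (log2 fold change -0.13, SE 0.10, edgeR adjusted p = 0.469), with 9 of 13 HFD livers below the control-diet mean of their genotype.

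Npc2, the soluble lysosomal partner of Npc1, averaged 126 ± 17.3 CPM on control diet and 124 ± 7.00 on HFD in Rosa26KO, with 152 ± 62.3 and 121 ± 21.3 in p53KO. Abcg1, a second exporter that is prominent in macrophages, averaged 17.2 ± 6.88 CPM on control diet and 28.4 ± 3.12 on HFD in Rosa26KO, with 23.4 ± 15.7 and 25.8 ± 12.8 in p53KO. Both missed the threshold in the averaged diet comparison (log2 fold change -0.18, SE 0.12, edgeR adjusted p = 0.391 for Npc2, and log2 fold change 0.43, SE 0.25, edgeR adjusted p = 0.301 for Abcg1). The highest values of both in Control_p53KO were those of replicate 3, at 276 and 54.6 CPM. Kupffer cell markers also stood high in that liver, at a sum of 3425 CPM against 240 to 1299 in the other 24, and T and NK cell markers, at 187 CPM. The part of these cells in the Npc2 and Abcg1 levels was not tested.

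Levels per kilobase of exon, averaged in Control_Rosa26KO, ran from 196 ± 38.9 CPM per kilobase (SD, n = 6) for Sc5d to 2.35 ± 0.943 for Abcg1. Sc5d was followed by Hmgcs1 at 173 ± 54.7, Insig1 at 150.5 ± 47.7, Ebp at 137 ± 25.1 and Fdps at 123 ± 29.7, neighbours that differed by less than their SDs. Srebf2 at 14.5 ± 2.76 and Abca1 at 13.3 ± 2.23 stood far lower, and Ggps1 was at 2.72 ± 0.462. Exons of 10 of the 30 genes overlap another annotated gene, among them Fdft1 with Ctsb, Cyp51 with Akap9, Tm7sf2 with Vps51, Ggps1 with Arid4b and Scap with 5830462I19Rik. Vps51 lies on the same strand as Tm7sf2, and Gm43738, which overlaps Fdps, on the same strand as Fdps. In both cases strand would not separate the reads. The strand of counting is not given, so reads of neighbours on the opposite strand cannot be told apart.

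The enzymes varied together from liver to liver. Log2 CPM centred on group means was correlated with Sqle over 25 livers, with permutation p-values from 100000 resamples within groups, adjusted over 8 genes. Dhcr7 gave r = 0.93 and rho = 0.95 (permutation p = 1e-05, the smallest these resamples can give, adjusted 4e-05) and Srebf2 gave r = 0.89 and rho = 0.83 (permutation p = 2e-05, adjusted 4e-05). Hmgcs1 gave r = 0.84 and rho = 0.82 (permutation p = 2e-05, adjusted 4e-05), Fdps r = 0.85 and rho = 0.88 (permutation p = 2e-05, adjusted 4e-05), and Insig1 r = 0.73 and rho = 0.76 (permutation p = 0.00017, adjusted 0.000272). Abca1 gave r = 0.56 and rho = 0.55 (permutation p = 0.00515, adjusted 0.00687).

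Without the 2 livers farthest from the median of Sqle, HFD_p53KO 5 and 7, r was 0.91 for Dhcr7, 0.83 for Srebf2, 0.78 for Hmgcs1, 0.79 for Fdps, 0.63 for Insig1 and 0.57 for Abca1. Over 3 runs of library names, cut by replicate number (8, 8 and 9 livers), r was 0.93, 0.85 and 0.98 for Dhcr7. For Srebf2 r was 0.84, 0.76 and 0.97. In the same runs it was 0.94, 0.85 and 0.80 for Hmgcs1, 0.94, 0.81 and 0.89 for Fdps, 0.78, 0.76 and 0.80 for Insig1, and 0.40, 0.62 and 0.63 for Abca1. For the clock gene Nr1d1 r was -0.05 and rho 0.03 (permutation p = 0.830, adjusted 0.830), and for the acute phase gene Saa1 r was 0.37 and rho 0.30 (permutation p = 0.0796, adjusted 0.0910). Without those livers r was -0.28 for Nr1d1 and 0.38 for Saa1.

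**Figure D4:**
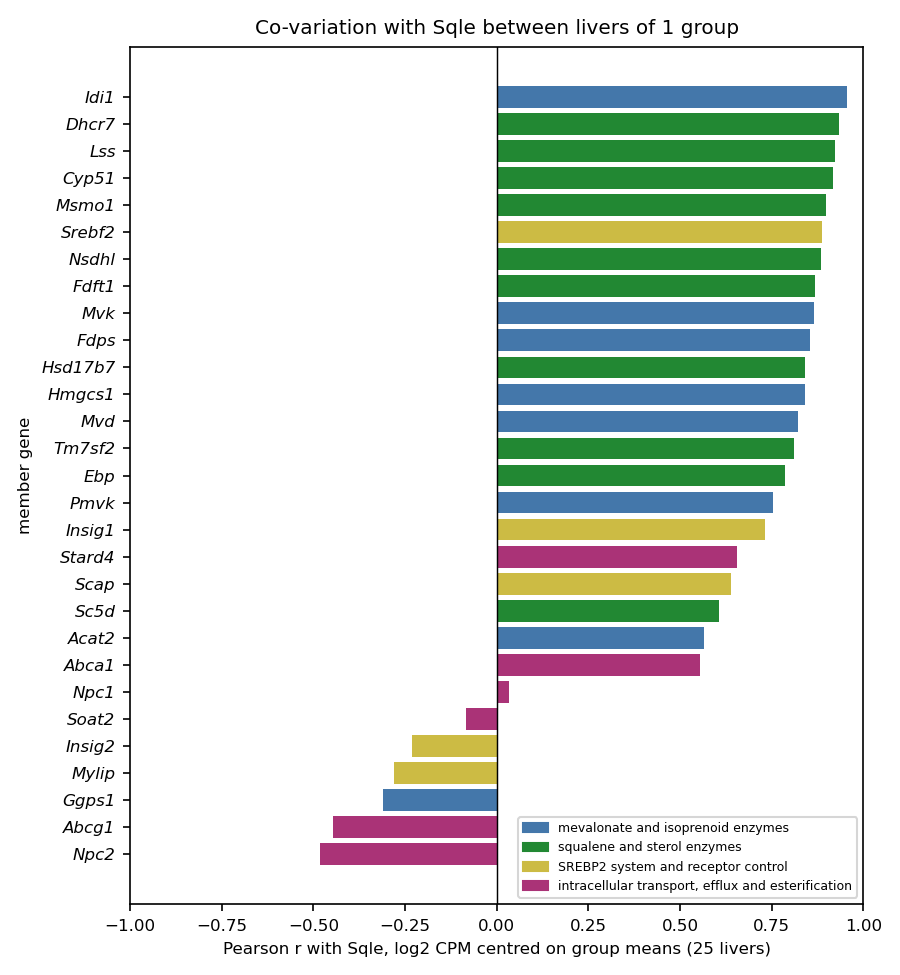
Pearson r of each other member with Sqle over 25 livers, from log2 CPM centred on group means, coloured by role. The 17 other enzymes apart from Ggps1 lie between 0.56 and 0.96, and Npc2 lies lowest at -0.48.

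As a description over all members, 17 of the 18 other enzymes had r above 0.5 with Sqle, with a median of 0.85, and the exception was Ggps1 at -0.31. Scap was at 0.64 and Stard4 at 0.66, while Npc1 at 0.03, Soat2 at -0.08, Insig2 at -0.23, Mylip at -0.28, Abcg1 at -0.45 and Npc2 at -0.48 lay below 0.5. All values share library size and tissue composition, and the share of all tested genes with r above 0.5 was not computed.

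The summed CPM of the 19 enzymes gives a single value per liver. In Rosa26KO it averaged 5007 ± 1133 on control diet (SD, n = 6) and 2658 ± 504 on HFD (SD, n = 6), a ratio of 0.531. In p53KO the averages were 4533 ± 1446 (SD, n = 6) and 2849 ± 1341 (SD, n = 7), a ratio of 0.628. The Rosa26KO groups did not overlap, at 3652 to 6641 against 1921 to 3387. In p53KO, HFD replicates 5 (4969) and 7 (4599.8) lay in the control range, and the other 5 HFD livers spanned 1760 to 2331. Control_p53KO 3 was at 2341, and the other 5 control livers spanned 3843 to 6195.

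Lipogenic genes, which SREBP1 and carbohydrate sensing drive toward fatty acids, were set beside the sterol enzymes. Of 12, 9 passed as lower in the averaged diet comparison, where 5.07% of all tested genes did. The median log2 fold change of the 12 was -1.17, while Srebf1 itself was at -0.07 (SE 0.15). In HFD_p53KO 5 and 7, whose enzyme sums lay in the control-diet range, the summed lipogenic CPM was 3566 and 11873, against 3696 to 15185 in the other 5 HFD_p53KO livers. Over both genotypes the HFD livers spanned lipogenic sums of 3566 to 20013. Control_p53KO 1 lay inside that range at 13794, with an enzyme sum of 5947. Control_p53KO 3 at 10936 and Control_p53KO 5 at 16536 lay inside it too, with enzyme sums of 2341 and 3843. Control_p53KO 1 also had the highest neutrophil marker sum (614 CPM) and acute phase sum (97456 CPM). Whether these 2 groups of genes differ in their diet effect was not tested.

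**Figure D5:**
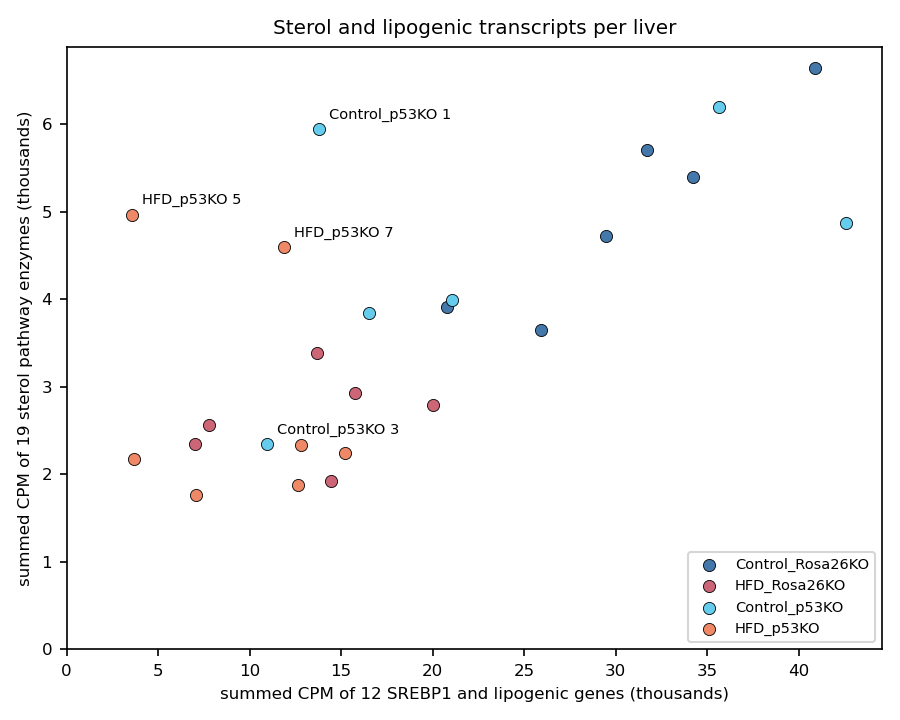
Summed CPM of 19 sterol pathway enzymes (vertical) against that of 12 SREBP1 and lipogenic genes (horizontal), 1 point per liver, coloured by group. HFD_p53KO 5 and 7 and Control_p53KO 1 combine enzyme sums of 4599.8 to 5947 with lipogenic sums of 3566 to 13794.

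Of 31 other sterol genes that were tested, 3 passed as lower and 1 as higher in the averaged diet comparison, with a median log2 fold change of -0.07. These 4 are 12.9% of the list, near the 9.71% of all tested genes. The gene that rose was Nceh1, a hydrolase of cholesterol esters (log2 fold change 0.63, SE 0.13, edgeR adjusted p = 0.00437). The LXR gene Nr1h3 was at -0.05 (SE 0.07) and Scarb1, the receptor for high-density lipoprotein, at -0.21 (SE 0.10), and neither passed.

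Library names are numbered in an unbroken series in which the order of the groups repeats. They were cut here into 3 runs at those repeats, with replicates 1 and 2, 3 and 4, and 5 to 7 of each group. The runs are not named as batches in the labels. All 16 genes that fell on average had negative diet differences within each run when averaged over genotypes, with medians of -1.27, -1.03 and -0.74. The 16 were chosen from these same livers, so this is a description and not separate evidence. In p53KO alone, 2 of the 16, Mvd at 0.47 and Fdft1 at 0.26, were above 0 in the run of replicates 5 to 7. Of the enzymes outside the 16, Mvk at 0.60, Msmo1 at 0.43, Hmgcs1 at 0.33 and Hsd17b7 at 0.26 were above 0 there too. Ggps1 at -0.12 was below 0. The median over the 30 genes was -0.52, -0.87 and -0.93 in Rosa26KO and -1.48, -0.43 and -0.11 in p53KO. HFD_p53KO 5 and 7 belong to the run of replicates 5 to 7, and Control_p53KO 3 to that of replicates 3 and 4.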

How the data were processed

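Liver polyA RNA was sequenced in pairs of reads, per the labels' protocols. The authors deposited 1 table of raw read counts per gene. STAR, HOMER and GRCm38/mm10 are named in the submitters' processing notes. The sources used here give no versions, annotation or strand of counting. Genes were filtered with filterByExpr (minimum count 10, minimum total 15) and scaled by TMM. An edgeR 4.0.16 quasi-likelihood model with robust dispersion was fitted to the 25 libraries, each group having its own mean, and p-values were adjusted by Benjamini-Hochberg over 14133 genes in each of the comparisons (R 4.3.3). The procedure was tested on simulated data. Each library was treated as a separate animal, so p-values measure only the spread between these samples, which may be technical if they were not. The comparisons share control and HFD samples. Log2 CPM used a prior count of 2. Alternatives were RLE scaling, no filter, no robust option, a replicate block, a term for runs of library names, DESeq2 1.42.0, limma voom (limma 3.58.1), only the groups compared, and each library left out. Settings added after seeing the data left out the 3 libraries on the other diet's side, the 3 highest in neutrophil markers, or the 4 highest in acute phase genes. Positions and exon lengths are from GENCODE M21, promoters from RefSeq. The members and lists were chosen with earlier results of these data known. Full values are given for the 12 members of smallest adjusted p and for Hmgcs1, Sqle, Fdps, Dhcr7, Insig1, Insig2, Srebf2, Abca1, Npc1 and Soat2. Of other sterol genes, those past the threshold could be named, with Nr1h3 and Scarb1. The counts cover every listed gene, and some of those genes are left unnamed.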

Additional observations from a re-analysis of the deposited data

Results flagged for a closer look

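In 7 of 120 sets of values (30 genes in 4 groups), 1 liver stood apart from the rest of its group by Dixon's gap test, which chance does in about 1 in 20 groups. Control_p53KO 3 held 4 of them: Tm7sf2 (65.2 CPM) and Ebp (162 CPM) were the lowest of their group, and Npc2 (276 CPM) and Abcg1 (54.6 CPM) the highest. Abca1 was highest in Control_p53KO 1 (186 CPM). Mylip was lowest in HFD_p53KO 7 (5 CPM), and Ggps1 was lowest in HFD_Rosa26KO 2 (12.7 CPM).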

How the results depend on the processing

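All 16 genes that fell in the averaged diet comparison passed as lower in each of its 35 alternatives, and 1 library left out gave 16 to 20 calls. Of the 35, 25 were such fits, which share nearly all livers. The fit without the 3 on the other diet's side rests on livers chosen from the enzyme levels, so it is not separate evidence. Limma voom gave 25 (35.4% of all tested genes). In Rosa26KO, 5 calls became 9 with a replicate block, 8 with a term for runs of library names, 16 with DESeq2, 23 with limma voom, 18 with only the groups compared, 9 without the 3 livers highest in neutrophil markers and 19 without the 3 on the other diet's side (both settings chosen after seeing the data). Leaving out 1 library gave 2 to 11: 2 or 3 without Control_Rosa26KO 4 or 5 or HFD_Rosa26KO 2, 3 or 5, and 8 to 11 without Control_Rosa26KO 2, Control_p53KO 3 or HFD_p53KO 5 or 7. In p53KO, 4 calls became 2 without the filter, 7 with a replicate block, 9 with DESeq2, 21 with limma voom, 0 with only the groups compared, 7 without the neutrophil-high livers and 23 without the 3 on the other diet's side. Leaving out 1 library gave 2 to 9: 8 or 9 without Control_p53KO 3 or HFD_p53KO 5 or 7, and 2 without Control_Rosa26KO 3 or 5, Control_p53KO 2, 5 or 6, HFD_Rosa26KO 1 to 4, or HFD_p53KO 1 to 4 or 6. In these cases the cause was not tested. The share of all tested genes stands above for DESeq2, limma voom, only the groups compared and without the 3 on the other diet's side. For the other settings, and for 1 library left out, no such share is set beside the counts. Whether those counts moved apart from the calls over all genes was not tested. Genotype and interaction calls were 0 in each alternative run. Whether replicate numbers pair the samples was not tested, so the replicate block is only an alternative. Same-numbered livers of different groups correlated at a median r of 0.08, with 17 of 36 pairs over 0.1. Pairs with other numbers had a median r of -0.05, with 66 of 198 over 0.1. The correlation of Sqle with Nr1d1 moved from -0.05 to -0.28 without the 2 farthest livers, and to 0.23 and 0.40 in runs 2 and 3 of library names, and that with Saa1 from 0.37 to -0.0218 in run 2. No gene that passed turned its sign, and 6 calls were lost outside the fits with 1 library left out, all of them in p53KO. Genes that did not pass took both signs over the alternatives: 15, 22 and 20 of 30 for genotype on control diet, on HFD and averaged, 24 for the interaction, and 1, 5 and 2 for diet in Rosa26KO, in p53KO and averaged.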
